A study of Mus musculus with 12 samples.

Results

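The genes described here are 5 odorant receptors that read lower in odor than in vehicle mice among GFP-positive cells, namely *Olfr1280*, *Olfr1308*, *Olfr1204*, *Olfr618* and *Olfr420*. They were picked by name from the odor minus vehicle difference in GFP-positive cells of these same arrays, so that difference is described and not tested. They are 5 of 1015 odorant receptor genes and of 19938 genes with a usable probe set, and each is read by 1 probe set that carries its symbol alone. The measurements come from 12 Mouse Gene 1.0 ST arrays, 3 in each of 4 groups, of sorted olfactory mucosa cells from 18 S100a5-tauGFP mice, which were of both sexes and aged 7 to 12 weeks. The groups are GFP-positive and GFP-negative cells of mice given a citrus accord at 5% (odor) and GFP-positive and GFP-negative cells of mice given filtered air (vehicle). Every mouse carried the reporter and spent 40 hours alone in a clean air chamber, and from 26 hours on received odorant or filtered air for 10 seconds every 20 minutes. Each array holds cells of 3 mice. Both fractions of a replicate were taken to come from the same mice, which the labels do not state. The 6 pools of mice, with 1 array for each fraction, are thus counted as the independent samples. The labels do not say which sex entered a pool or what the accord contains.

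An odorant receptor is a G protein-coupled receptor in the cilia of olfactory sensory neurons, and each mature neuron transcribes a single receptor gene from a single allele. A receptor that binds its odorant activates the G protein subunit encoded by *Gnal*, the cyclase encoded by *Adcy3* and the cyclic nucleotide-gated channel that includes the product of *Cnga2*. *S100a5*, which drives the fluorescent reporter, encodes a calcium-binding protein whose transcription follows the activity of these neurons. In pooled cells, fewer neurons that use a receptor and less receptor RNA per neuron cannot be told apart. The labels name no ligand of the 5 receptors.

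*Olfr1280* (probe set 10474485), *Olfr1308* (10485800) and *Olfr1204* (10473616) lie on chromosome 2, at chr2:111313950-111374131, chr2:111960109-111961071 and chr2:88851952-88852881 of GRCm38.p6. The gap between *Olfr1280* and *Olfr1308* is 586.0 kb, whereas *Olfr1204* is 22461 kb away from *Olfr1280*. *Olfr618* (10555803) lies at chr7:103597318-103598274 and belongs to the class I receptors, the family that resembles fish receptors. *Olfr420* (10351903) lies at chr1:174158722-174159767. RefSeq lists all 5 as protein-coding. The RefSeq span of *Olfr1280* covers 60182 bases and holds 3 further receptor genes, *Olfr1281*, *Olfr1282* and *Olfr1283*. A second probe set is annotated to 6 symbols, *Olfr1280* among them, and it was left out because its signal belongs to no single gene. Probes of receptor genes can also bind close paralogues, and the part of this in the values was not tested.

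The RefSeq windows from 250 bases before to 50 bases after the annotated start are shown because the 5 genes were grouped by a shared direction of change. Each reads 5′ to 3′ on the gene's strand, in GRCm38.p6: *Olfr1280* chr2:111315231-111315530 (plus strand), *Olfr1308* chr2:111961022-111961321 (minus strand), *Olfr1204* chr2:88851702-88852001 (plus strand), *Olfr618* chr7:103597068-103597367 (plus strand) and *Olfr420* chr1:174158472-174158771 (plus strand). Capitals mark matches to TAATTA, a homeodomain core, or to CCCNNGGG, the palindrome core bound by EBF factors. Both motifs read the same on both strands and cannot overlap.
Olfr1280: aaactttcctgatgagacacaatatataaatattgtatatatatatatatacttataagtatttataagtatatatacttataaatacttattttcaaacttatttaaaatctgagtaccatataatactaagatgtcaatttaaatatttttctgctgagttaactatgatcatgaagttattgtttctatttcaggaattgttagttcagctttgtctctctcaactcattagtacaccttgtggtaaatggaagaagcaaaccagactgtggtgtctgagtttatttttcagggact
Olfr1308: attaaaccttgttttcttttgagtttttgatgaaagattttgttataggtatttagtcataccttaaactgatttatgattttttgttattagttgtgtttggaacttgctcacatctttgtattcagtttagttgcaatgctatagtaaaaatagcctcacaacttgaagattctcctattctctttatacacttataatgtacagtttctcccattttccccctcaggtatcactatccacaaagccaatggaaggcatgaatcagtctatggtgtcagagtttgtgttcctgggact
Olfr1204: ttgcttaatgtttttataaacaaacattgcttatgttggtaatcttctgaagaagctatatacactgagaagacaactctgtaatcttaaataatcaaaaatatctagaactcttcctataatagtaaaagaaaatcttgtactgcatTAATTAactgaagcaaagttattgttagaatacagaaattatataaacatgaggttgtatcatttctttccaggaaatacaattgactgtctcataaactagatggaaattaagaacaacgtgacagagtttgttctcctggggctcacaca
Olfr618: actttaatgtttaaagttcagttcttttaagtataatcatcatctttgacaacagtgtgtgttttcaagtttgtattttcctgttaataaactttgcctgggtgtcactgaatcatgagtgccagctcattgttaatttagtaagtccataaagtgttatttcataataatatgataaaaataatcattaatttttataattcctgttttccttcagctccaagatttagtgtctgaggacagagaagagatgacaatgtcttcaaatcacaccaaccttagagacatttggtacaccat
Olfr420: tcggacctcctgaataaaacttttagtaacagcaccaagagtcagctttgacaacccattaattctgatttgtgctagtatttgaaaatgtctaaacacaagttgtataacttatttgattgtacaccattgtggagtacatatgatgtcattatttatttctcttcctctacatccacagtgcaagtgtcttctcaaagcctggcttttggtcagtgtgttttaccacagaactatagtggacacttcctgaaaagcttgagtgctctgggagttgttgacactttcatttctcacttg
TAATTA was found in 1 of the 5 windows, that of *Olfr1204*, and CCCNNGGG in 0 of the 5. Over the 867 windows of tested odorant receptors, 18.5% held TAATTA and 3.00% held CCCNNGGG, against 5.29% and 13.7% of all 32851 windows. The windows were rich in A and T: 73.3% in *Olfr1280*, 70.0% in *Olfr1204*, 68.7% in *Olfr618*, 66.3% in *Olfr1308* and 62.0% in *Olfr420*. The median was 65.0% over receptor windows, with quartiles of 60.5% and 68.0%, and 47.3% over all windows. The models of *Olfr1308*, *Olfr1204* and *Olfr618* are 963, 930 and 957 bases long, which is coding length, so their annotated start need not be the start of transcription. The window of *Olfr1280* begins inside its RefSeq span. Its 50 bases after the annotated start open with ATG, the start codon triplet, so the same limit holds for it.

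The sort was checked against lists of cell type genes. Averaged over treatments, 10 of 10 mature sensory neuron genes were called higher in GFP-positive cells, as were 38.7% of all genes. Called lower were 12 of 12 leukocyte genes, 9 of 9 sustentacular (supporting) cell genes and 9 of 9 progenitor genes tested, and 21.2% of all genes. The immature sensory neuron list was mixed, with 5 of 10 genes higher and 4 lower. In the remaining lists no gene was called higher. Lower were 4 of 6 horizontal basal cell genes and 7 of 8 microvillous and tuft cell genes. So were 3 of 3 erythroid genes tested and 4 of 9 genes of ensheathing glia, endothelium and stroma. The mean of the mature neuron genes was 12.8 on every GFP-positive array and 12.2 to 12.5 (log2) on the GFP-negative arrays. The mean of the leukocyte genes was 7.53 to 7.74 on odor and 7.47 to 7.75 on vehicle GFP-positive arrays, against 10.53 to 10.96 on odor and 10.46 to 10.69 on vehicle GFP-negative arrays. The array median over the odorant receptors was 7.73, 7.50 and 7.60 in odor GFP-positive replicates 2, 3 and 4 and 7.64, 7.71 and 7.73 in vehicle GFP-positive replicates 1, 2 and 4. In GFP-negative cells it was 7.23, 6.76 and 6.73 in odor replicates 2, 3 and 4 and 7.00, 7.00 and 6.61 in vehicle replicates 1, 2 and 4.

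Among GFP-positive cells, each of the 5 receptors averaged 0.59 to 0.96 lower on the log2 scale in odor than in vehicle mice. *Olfr1280* read 4.87, 5.28 and 4.75 in odor GFP-positive replicates 2, 3 and 4, against 6.24, 5.86 and 5.66 in vehicle GFP-positive replicates 1, 2 and 4. All 3 odor arrays were below all 3 vehicle arrays. In GFP-negative cells *Olfr1280* read 4.35, 4.25 and 4.04 in odor replicates 2, 3 and 4, against 4.45, 4.46 and 4.51 in vehicle replicates 1, 2 and 4. The odor arrays were again the lower ones, without overlap, but the gap was narrower. Its mean was 4.96 ± 0.28 in odor and 5.92 ± 0.29 in vehicle GFP-positive cells (SD, n = 3), a difference of -0.96 (SE 0.15). *Olfr1280* was close to the low end of the scale: 10 of its 12 values, all 3 odor GFP-positive ones among them, lay below the lower quartile of their array, which was 5.65 to 5.83 over the 12 arrays. The deposited values carry no detection call, so no fold is given, and the difference and its rank are those of the deposited values.

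*Olfr1308* read 6.58, 6.83 and 6.87 in odor GFP-positive replicates 2, 3 and 4, against 7.52, 7.50 and 7.17 in vehicle GFP-positive replicates 1, 2 and 4. The groups did not overlap, and the odor arrays differed little among themselves. In GFP-negative cells it read 5.99, 5.88 and 6.21 in odor replicates 2, 3 and 4, against 6.20, 5.56 and 5.82 in vehicle replicates 1, 2 and 4. These ranges overlapped. The GFP-positive means were 6.76 ± 0.16 in odor and 7.40 ± 0.20 in vehicle mice (SD, n = 3). They differed by -0.64 (SE 0.16), or 1.56-fold.

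*Olfr1204* read 6.36, 5.65 and 6.22 in odor GFP-positive replicates 2, 3 and 4, against 6.88, 7.01 and 6.89 in vehicle GFP-positive replicates 1, 2 and 4. The vehicle arrays lay close together, and replicate 3 was the lowest odor array. In GFP-negative cells it read 4.81, 4.92 and 4.36 in odor replicates 2, 3 and 4, against 4.32, 4.37 and 5.05 in vehicle replicates 1, 2 and 4. These ranges overlapped, and all 6 values lay below the lower quartile of their array. The GFP-positive means were 6.08 ± 0.38 in odor and 6.93 ± 0.07 in vehicle mice (SD, n = 3). They differed by -0.85 (SE 0.22), or 1.80-fold. Odor GFP-positive replicate 3 also lay below the lower quartile of its array, and without it the difference was -0.64 (SE 0.21).

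*Olfr618* read 9.26, 8.51 and 8.68 in odor GFP-positive replicates 2, 3 and 4, against 9.46, 9.56 and 9.21 in vehicle GFP-positive replicates 1, 2 and 4. Odor replicate 2 lay within the vehicle range, so the groups overlapped. In GFP-negative cells it read 6.94, 6.97 and 6.79 in odor replicates 2, 3 and 4, against 6.95, 6.90 and 6.69 in vehicle replicates 1, 2 and 4. The ranges overlapped, and the 6 values lay close together. The GFP-positive means were 8.82 ± 0.39 in odor and 9.41 ± 0.18 in vehicle mice (SD, n = 3). They differed by -0.59 (SE 0.16), or 1.51-fold.

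*Olfr420* read 8.24, 7.94 and 7.28 in odor GFP-positive replicates 2, 3 and 4, against 8.30, 9.01 and 8.47 in vehicle GFP-positive replicates 1, 2 and 4. The groups did not overlap, but odor replicate 2 and vehicle replicate 1 nearly met. In GFP-negative cells it read 8.33, 7.44 and 7.24 in odor replicates 2, 3 and 4, against 7.36, 7.77 and 6.93 in vehicle replicates 1, 2 and 4. These ranges overlapped, and odor GFP-negative replicate 2, the highest, was also the GFP-negative array with the highest receptor median. The part of that median in the value was not tested. The GFP-positive means were 7.82 ± 0.49 in odor and 8.59 ± 0.37 in vehicle mice (SD, n = 3). They differed by -0.78 (SE 0.32), or 1.71-fold. It was -0.50 (SE 0.32) without odor GFP-positive replicate 4. *Olfr420* was the most variable of the 5, with a residual SD of 0.473 within groups, against 0.218 to 0.316 for the other members and a median of 0.324 over all receptors.

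**Figure D1:**
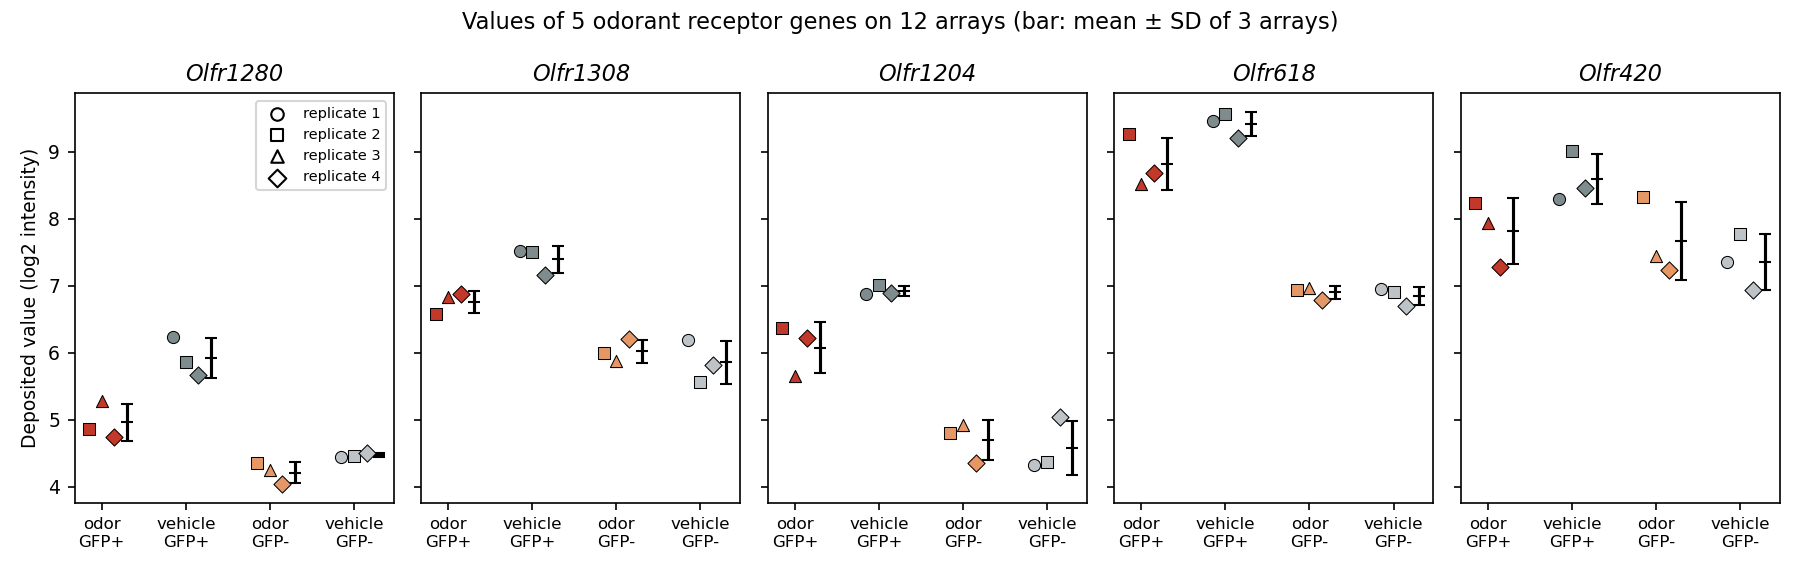
Deposited log2 values of the 5 receptor genes (y axis) on the 12 arrays, by group (x axis), with the marker's shape giving the replicate and the mean ± SD of 3 arrays beside each group. The odor GFP-positive values lie below the vehicle GFP-positive values for every gene but *Olfr618*, where odor replicate 2 (9.26) exceeds vehicle replicate 4 (9.21). Levels cannot be compared between panels, because each gene has its own probes.

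For 4 of the 5 members the odor and vehicle GFP-positive arrays did not overlap. Over all genes 3.45% were lower without overlap in this comparison, and over the odorant receptors 3.35%. Adjusted over all genes, the share called lower was 0% in both. By size of the difference, *Olfr1280*, *Olfr1204* and *Olfr420* ranked 2, 3 and 5 of the 1015 receptors, *Olfr1308* ranked 6 and *Olfr618* ranked 10. By p among the 633 receptors below 0, *Olfr1280*, *Olfr1308*, *Olfr1204* and *Olfr618* ranked 1 to 4 and *Olfr420* ranked 15. The names thus follow no single threshold. Next by p, outside the group, were *Olfr743* at -0.62 (SE 0.21), *Olfr190* at -0.40 (SE 0.13), *Olfr517* at -0.44 (SE 0.15), *Olfr1276* at -0.24 (SE 0.08) and *Olfr576* at -0.28 (SE 0.10). By size, 5 receptors outside the group lay beyond *Olfr618*, the smallest member difference: *Olfr1176* at -0.97 (SE 0.42), *Olfr1182* at -0.78 (SE 0.82), *Olfr743*, *Olfr814* at -0.62 (SE 0.33) and *Olfr816* at -0.60 (SE 0.31).

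The odor minus vehicle difference in GFP-negative cells is not the one that chose the genes, and it was tested. The GFP-negative arrays do enter the residual spread, and so the p ranks, of the GFP-positive comparison. None of the 5 receptors passed (0 of 5 in limma, against 0% of all genes called in either direction), and 0 of 5 had an unadjusted p under 0.05, as 1301 genes (6.53%) and 5.71% of receptors did. The differences were -0.26 for *Olfr1280* (95% interval -0.59 to 0.08, adjusted p = 0.746), 0.17 for *Olfr1308* (-0.17 to 0.51, adjusted p = 0.822) and 0.12 for *Olfr1204* (-0.35 to 0.59, adjusted p = 0.913). *Olfr618* differed by 0.05 (-0.30 to 0.41, adjusted p = 0.950) and *Olfr420* by 0.32 (-0.37 to 1.01, adjusted p = 0.833). The point estimate was thus below 0 for *Olfr1280* alone and above 0 for the other 4, with every interval including 0. Each of those 4 signs turned under at least 1 alternative, *Olfr1308* and *Olfr618* with array weights and *Olfr1204*, *Olfr618* and *Olfr420* with 1 array left out. The odor and vehicle arrays did not overlap for 1 of the 5, *Olfr1280*, where 4.65% of all genes and 2.17% of receptors were lower without overlap. The median of the 5 differences was 0.12, against 0.04 over the 1015 receptors and -0.01 over all genes. The odor difference in GFP-positive minus that in GFP-negative cells was -0.65 (*Olfr618*, SE 0.23) to -1.09 (*Olfr420*, SE 0.45), but it includes the arrays that chose the genes and was not tested.

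**Figure D2:**
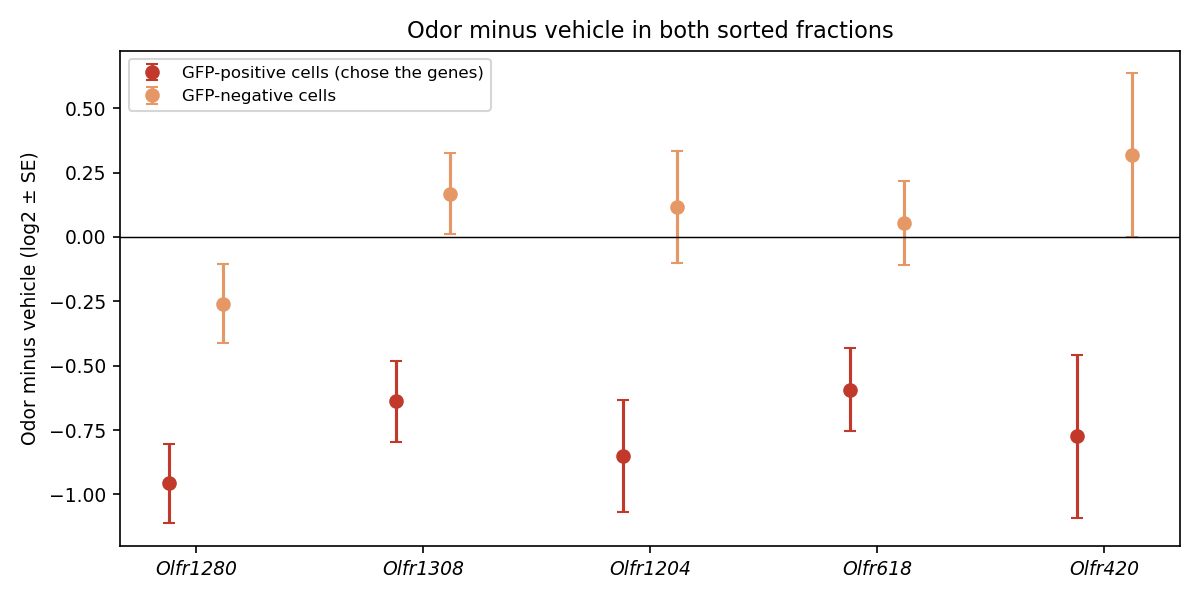
Odor minus vehicle difference (log2 ± SE from the limma fit, y axis) of each receptor in GFP-positive and GFP-negative cells. The GFP-positive differences, -0.59 to -0.96, are the values that chose the genes, and the GFP-negative differences run from -0.26 to 0.32.

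GFP-positive cells were then compared with GFP-negative cells, with the difference averaged over odor and vehicle mice. As a contrast, this average carries no part of the odor difference in GFP-positive cells, but its test is not free of the choice of genes. Both comparisons use the same residual spread, from a fit that leaves the pairing of the fractions within pools unused. A receptor that is low in vehicle GFP-positive cells also has little room to read lower in odor mice. All 5 receptors were higher in GFP-positive cells by limma, where 38.7% of all genes and 66.4% of receptors were called higher. *Olfr618* rose by 2.24 (SE 0.11, 4.73-fold, adjusted p = 5.72e-09) and *Olfr1204* by 1.86 (SE 0.15, adjusted p = 4.87e-07). *Olfr1308* rose by 1.13 (SE 0.11, adjusted p = 2.37e-06), *Olfr1280* by 1.10 (SE 0.11, adjusted p = 2.60e-06) and *Olfr420* by 0.69 (SE 0.22, adjusted p = 0.0173). The GFP-negative values of *Olfr1204* and *Olfr1280* all lay below the lower quartile of their array, and whether they were above background is not known, so the sizes and ranks of these 2 differences are not exact. For all but *Olfr420* each of the 6 GFP-positive arrays lay above each of the 6 GFP-negative arrays, as for 27.6% of all genes and 48.3% of receptors. The leukocyte, sustentacular and progenitor genes moved with the sort in the opposite direction, and their part in these differences was not tested.

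The receptors as a family had a median sort difference of 0.71 with quartiles of 0.11 and 1.35, against 0.10 over all genes. *Olfr618* exceeded 93.1% of the 1015 receptors and *Olfr1204* 86.5%, whereas *Olfr1308* (67.1%), *Olfr1280* (65.6%) and *Olfr420* (49.2%) stood nearer the middle. Once the receptors of an array were centred on their median, *Olfr618* (1.48) and *Olfr1204* (1.10) still passed. *Olfr1308* was then 0.37 (adjusted p = 0.0506), *Olfr1280* 0.34 (adjusted p = 0.0594) and *Olfr420* -0.07 (adjusted p = 0.731). The calls of these 3 genes therefore ended once the shift shared by receptors was removed.

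Within single pools, GFP-positive minus GFP-negative *Olfr1280* was 0.51, 1.03 and 0.71 in odor pools 2, 3 and 4, against 1.79, 1.40 and 1.16 in vehicle pools 1, 2 and 4. *Olfr1308* gave 0.58, 0.95 and 0.66 in odor pools, against 1.32, 1.94 and 1.35 in vehicle pools. *Olfr618* gave 2.32, 1.54 and 1.90 in odor pools, against 2.51, 2.66 and 2.52 in vehicle pools. For these 3 genes, and for *Olfr420*, every odor pool stood below every vehicle pool. The share of all genes or receptors that do so was not counted. *Olfr420* gave -0.09, 0.50 and 0.03 in odor pools, against 0.94, 1.25 and 1.53 in vehicle pools, so in odor mice the receptor was about level between the fractions. *Olfr1204* gave 1.56, 0.72 and 1.85 in odor pools, against 2.55, 2.64 and 1.84 in vehicle pools, which overlap. These pool values contain the arrays that chose the genes and are descriptions.

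**Figure D3:**
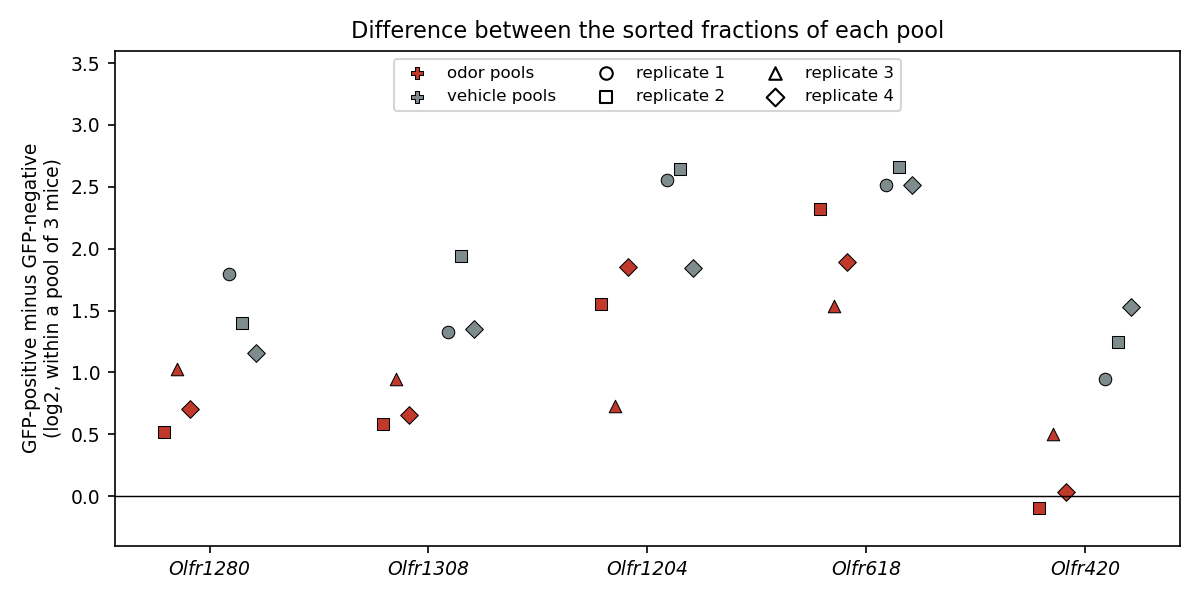
GFP-positive minus GFP-negative value (log2, y axis) within each pool of 3 mice, for the 5 receptors, with odor pools left of vehicle pools and the replicate number as the marker. All values but *Olfr420* in odor pool 2 (-0.09) lie above 0, and odor and vehicle pools overlap for *Olfr1204* only. The share of all genes whose pools do not overlap was not counted.

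The order of the 4 groups was the same at the top for all members, with vehicle GFP-positive first and odor GFP-positive next. That vehicle stood above odor in GFP-positive cells was set by the choice of the genes. For *Olfr1280* the order went on with vehicle GFP-negative (4.47 ± 0.03) and odor GFP-negative (4.21 ± 0.16). For *Olfr1308*, *Olfr1204*, *Olfr618* and *Olfr420* odor GFP-negative followed (6.03 ± 0.17, 4.70 ± 0.30, 6.90 ± 0.10 and 7.67 ± 0.58) and vehicle GFP-negative last (5.86 ± 0.32, 4.58 ± 0.40, 6.85 ± 0.14 and 7.35 ± 0.42; SD, n = 3). The last 2 places of these 4 genes overlapped, and for *Olfr420* the odor GFP-positive arrays overlapped the odor GFP-negative arrays as well.

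Receptor genes lie in clusters, so the 5 tested receptors on either side of each member were set beside it. Of these 50 neighbours, 0 passed the limma test of odor against vehicle in GFP-positive cells, against 0.00502% of all genes called higher and 0% called lower. Their median difference was -0.05, the same as over all receptors (-0.05), and 32 of the 50 were below 0, as were 633 of the 1015 receptors. By cluster the medians were -0.04 around *Olfr1280*, -0.05 around *Olfr1308*, 0.00 around *Olfr1204*, -0.11 around *Olfr618* and -0.14 around *Olfr420*. Around *Olfr618* and *Olfr420*, 8 of 10 neighbours were below 0, against 6 of 10 around *Olfr1308* and 5 of 10 around *Olfr1280* and *Olfr1204*. Odor and vehicle did not overlap for 3 neighbours that were lower, *Olfr1208*, *Olfr623* and *Olfr424*, and for *Olfr1200*, which was higher. Over all genes 3.45% were lower and 4.49% higher without overlap, and over receptors 3.35% and 1.48%.

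The nearest receptor on each side of a member differed by less than the member itself. The members were chosen for low values of this same difference, so this is largely set by the choice. *Olfr1281*, inside the RefSeq span of *Olfr1280*, differed by -0.56 (SE 0.46), while *Olfr1279* on the other side differed by 0.10 (SE 0.13). *Olfr424*, 21.0 kb from *Olfr420*, differed by -0.47 (SE 0.21), with means of 9.67 in odor and 10.1 in vehicle GFP-positive cells. *Olfr419* on its far side differed by -0.05 (SE 0.25). *Olfr1307* and *Olfr1309* beside *Olfr1308* differed by 0.10 (SE 0.27) and -0.05 (SE 0.31), and *Olfr1205* and *Olfr1206* beside *Olfr1204* by 0.11 (SE 0.31) and 0.11 (SE 0.20). *Olfr617* and *Olfr619* beside *Olfr618* differed by 0.02 (SE 0.13) and -0.29 (SE 0.15).

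In the sort averaged over treatments, 40 of the 50 neighbours were higher in GFP-positive cells and 6 lower by limma, with a median of 0.92. Over all genes 38.7% were called higher and 21.2% lower, and over receptors 66.4% and 14.3%. Around *Olfr618* the median was 0.55, with a highest value of 1.89 (*Olfr613*), below the 2.24 of *Olfr618* itself. Around *Olfr1204* it was 1.14, with values from -1.37 (*Olfr1198*) to 2.15 (*Olfr1209*). In the comparison of odor with vehicle GFP-negative cells 0 of the 50 passed in limma, as did 0% of all genes.

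**Figure D4:**
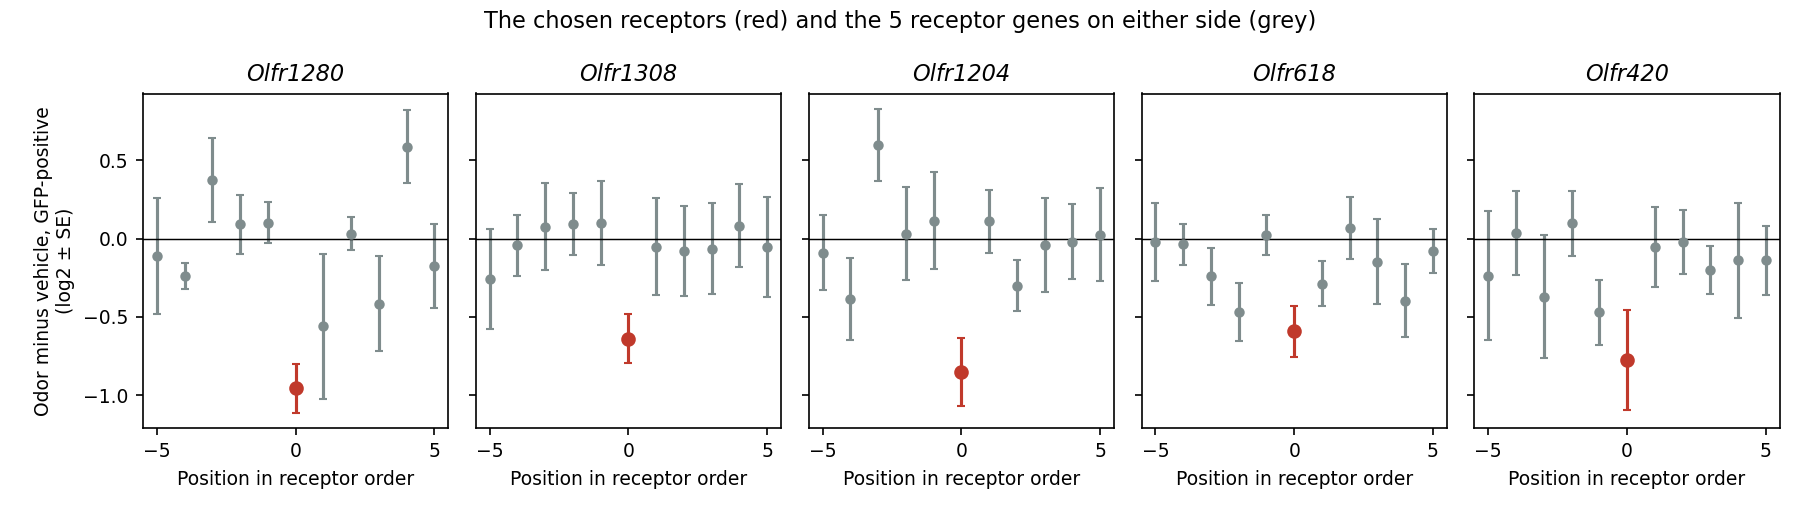
Odor minus vehicle difference in GFP-positive cells (log2 ± SE, y axis) of each chosen receptor (red, position 0) and of the 5 tested receptor genes on either side in gene order (grey). The 50 neighbours have a median of -0.05 and range from -0.56 to 0.60. Each chosen receptor lies below all of its own neighbours, which the choice of genes by this same difference largely sets.

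Likeness of pattern was measured as the root mean square difference between 2 genes' values over the 12 arrays, each gene centred on its own mean, so that 0 is an identical pattern. Among all 19938 genes the 3 closest to each member were odorant receptors in every case. *Olfr743* was closest to *Olfr1280* (0.276) and to *Olfr1308* (0.246), where the median gene stood at 0.648 and 0.617. *Olfr424* was closest to *Olfr1204* (0.275) and among the 3 closest to *Olfr618* (0.254), whose closest gene was *Olfr726* (0.225). *Olfr552* was closest to *Olfr420* (0.277). Among the members, *Olfr1280* and *Olfr1308* were 0.301 apart and *Olfr1204* and *Olfr618* 0.336 apart, and the other 8 pairs were 0.490 to 0.850 apart. These distances hold the sort and the odor differences together, and they use the arrays that chose the genes.

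Of 14 genes that act downstream of the receptors in transduction, 0 passed between odor and vehicle mice in either fraction by limma. Of all 19938 genes, 1 was called higher and 0 lower in GFP-positive cells, and 0 in either direction in GFP-negative cells. A list without calls therefore says little. The median differences of the 14 were -0.01 (GFP-positive) and -0.08 (GFP-negative). All 14 were higher in GFP-positive than in GFP-negative cells averaged over treatments (median 0.56), where 38.7% of all genes were called higher. Most of the mature sensory neuron genes above, *Omp*, *Adcy3* and *Cnga2* among them, are also in this list, so these are not separate results. The largest rises were those of *Pde1c*, a phosphodiesterase that degrades cyclic nucleotides (0.89, SE 0.08), *Ano2*, a calcium-activated chloride channel (0.78, SE 0.08), and *Slc24a4*, a sodium-calcium exchanger (0.76, SE 0.09). All members but *Olfr420* had a larger sort difference than *Pde1c*, the largest of the 14. Once receptors were centred on their array median, only *Olfr618* (1.48) and *Olfr1204* (1.10) exceeded it. *Olfr1308* (0.37) and *Olfr1280* (0.34) then fell below it. The sizes for *Olfr1204* and *Olfr1280* are not exact, as said above. *Omp*, which encodes the olfactory marker protein, averaged 13.5 in odor and in vehicle GFP-positive cells and 13.2 in odor and in vehicle GFP-negative cells.

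The 16 genes of receptor choice and trafficking, which include *Adcy3* of the transduction list, gave 0 calls in either odor comparison by limma. Of all 19938 genes, 1 was called in GFP-positive cells and 0 in GFP-negative cells. In the sort averaged over treatments, 12 of the 16 were higher and 2 lower in GFP-positive cells. In that sort comparison 38.7% of all genes were called higher and 21.2% lower. *S100a5* itself averaged 6.35 in odor and 6.35 in vehicle GFP-positive cells (difference -0.00, SE 0.10), and it was 0.25 (SE 0.07) higher in GFP-positive than in GFP-negative cells. Both GFP-positive groups were sorted on its reporter. Of 11 activity-dependent genes 0 passed in either odor comparison, and 5 were higher and 6 lower in the sort. *Kirrel2*, an adhesion gene that active neurons express more, was 1.30 (SE 0.10) higher in GFP-positive cells, while the immediate early genes *Fosb* and *Fos* were lower there, with differences of -2.95 (SE 0.19) and -2.76 (SE 0.23). No list of other cell types had a called gene between odor and vehicle GFP-positive cells, where 1 of 19938 genes was called at all.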

How the data were processed

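Cells of 6 pools of 3 mice were measured on 12 arrays. The authors deposited 1 log2 value for each probe set and array. Affymetrix Expression Console is the tool named, per the submitters' processing notes, while the summarization, background correction and scaling are not given in the sources. Values were used as deposited and lie between 2.42 and 14.1. Intensities give no depth, so the number of arrays limits the precision. Of 35556 probe sets 21789 had 1 symbol, and the highest-mean probe set per gene left 19938 genes, with no filter on low values. The table held 0 columns of other samples.

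Groups were fitted in 1 linear model with limma 3.58.1 (R 4.3.3), with two-sided moderated tests, Benjamini-Hochberg adjustment over all genes at 0.05 and 95% intervals. For the 5 receptors, odor minus vehicle in GFP-negative cells and the sort difference averaged over treatments were tested. For neighbours and listed genes odor minus vehicle in GFP-positive cells was tested as well. In simulated data with 200 changed genes the fit recovered 58.2% of genes changed by 0.5 and 94.0% of those changed by 1 log2 unit in the GFP-negative comparison, and 83.6% and 97.0% in the sort, each over 19938 genes. Changes under 0.5 were not simulated. The changed genes were drawn from all genes, whose median residual SD was 0.120, against 0.218 to 0.473 for the 5 receptors. These shares therefore do not give the recovery for the 5 receptors. The GFP-positive and GFP-negative arrays of one replicate were taken to share their mice, because the labels give 18 mice for 12 arrays of 3 mice each. The deviations of such pairs from their group means correlated with r of 0.0732 to 0.252. Odor and vehicle numbers mark different mice. Arrays of the same code number correlated at 0.309, 0.185 and 0.268 in GFP-positive cells and at 0.439, -0.206 and 0.281 in GFP-negative cells. The lowest pool pair, at 0.0732, was under 0.1 too, so these values do not separate the kinds of pair. Neither pairing entered the main fit, and both served as replicate blocks among the alternatives. A shared order or batch behind the code numbers was not tested. The sample codes all share one ending and name no batch. Figures used Python 3.11.15, pandas 2.3.3, numpy 2.4.6 and matplotlib 3.10.9.

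The members and gene lists were chosen with earlier results of these data known. Named beside the members are the nearest tested receptor on each side, the 3 genes of most similar pattern, the 5 receptors next by p, *S100a5*, *Omp*, and of each list up to 4 called members with the largest difference or else the pair with the smallest p. Only part of these appear in the text. *Olfr1176*, *Olfr1182*, *Olfr814*, *Olfr816*, the neighbours beyond the nearest and the lists' other genes were named after their values were seen. Receptors were not compared by protein sequence here. Motifs were searched in RefSeq windows of GRCm38.p6. Alternatives were other scalings, a filter on low values, replicate blocks, array weights, fits of 2 groups, centred receptors and single arrays left out.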

Additional observations from a re-analysis of the deposited data

How the results depend on the processing

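In the comparison of odor with vehicle GFP-negative cells 0 receptors passed in each of 21 alternatives, of which 20 tested all 5 and the one without the genes of lowest mean value tested 3. The count of genes called there was 0 to 15 with single arrays left out, with 15, 3 and 1 without odor GFP-negative replicate 2, 3 or 4. The direction of these small differences did not hold everywhere. With array weights *Olfr1308* was -0.0073 and *Olfr618* -0.024. With single arrays left out *Olfr420* ranged from -0.012 (without odor GFP-negative replicate 2) to 0.53, *Olfr1204* from -0.012 (without vehicle GFP-negative replicate 1) to 0.35 and *Olfr618* from -0.023 (without vehicle GFP-negative replicate 4) to 0.11. In the averaged sort difference 5 receptors passed in 17 of 19 alternatives, 3 when the genes of lowest mean value were dropped, since *Olfr1280* and *Olfr1204* were then not tested, and 2 once receptors were centred on their median in each array, where *Olfr420* was -0.071, *Olfr1308* 0.37 and *Olfr1280* 0.34. The cause of these changes was not tested beyond the settings' own construction. With the pool of mice as a replicate block all 5 passed in the sort, and with the random block 0 of 5 in GFP-negative cells, where a fixed pool block cannot be used. *Olfr420* then had a difference of 0.69 (SE 0.10) with a fixed and 0.69 (SE 0.20) with a random block, and the block moved the count of genes called to 11761 or 12300, from 11945 without it. The title and code numbers as a replicate block gave 0 calls of the 5 in GFP-negative cells. The median odor difference of the 5 in GFP-positive cells, -0.78, lay between -0.91 and -0.59 over the 20 alternatives that held all 5. No receptor had another probe set with its symbol alone, so that alternative gave no value.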
